A study of Mus musculus with 6 samples.

Results

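Crisp2, Crisp1, Crispld1, Crispld2, Glipr1, Glipr2 and Glipr1l1 belong to one protein superfamily and were followed here as the cysteine-rich secretory protein (CRISP) and glioma pathogenesis-related (GLIPR) genes. Every probe set that the platform annotation assigned to exactly one of these symbols was taken. This gave 11 probe sets of 45037, for 6 of the 7 genes, and Crisp1 was named by no probe set of the annotation used here. The probe sets were read in whole testes of mice at postnatal day 21 (P21), 3 wild-type (Wt) and 3 homozygous for the Dazap1 floxed-with-neo allele (Fn), all on a mixed C57BL/6 and 129 background and all untreated. Each sample had its own one-colour Affymetrix Mouse Genome 430 2.0 array. Per the study, the Fn allele still makes a DAZAP1 protein, with a segment inserted between its RNA-binding domains, and Fn mice are the survivors of a genotype with early death and slow growth. The comparison asks which transcripts differ in level between testes with unaltered and altered DAZAP1, an RNA-binding protein that takes part in splicing. The study was concerned that spermatocytes of P21 Fn testes, with growth slowed, might lag in development behind those of P21 Wt testes. A difference of stage and one of genotype cannot be told apart in these arrays. Crisp2 was one of the genes whose splicing the study followed.

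All of these proteins share the CAP domain, named after CRISPs, antigen 5 and plant pathogenesis-related proteins. The CRISPs add a short cysteine-rich tail that can act on ion channels, and in rodents most of them are products of the male tract. CRISP2 is made in the testis and is found in mature sperm, both in the acrosome and in the flagellum, whereas CRISP1 is secreted by the epididymis and coats sperm that pass through it. GLIPR1L1 is a testis protein held on the sperm surface by a lipid anchor and takes part in binding to the egg. CRISPLD1 and CRISPLD2 are secreted proteins with LCCL domains, and CRISPLD2 is known as a product of mesenchymal cells of the developing lung. GLIPR1 is a membrane and secreted protein first described in glioma. GLIPR2 is the exception to the secretory label, since it sits on the cytosolic face of the Golgi.

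RefSeq sequences of the 250 bases before the annotated start (build GRCm38.p6) matched 5 of the 7 genes, Crispld1 and Glipr1 being the others. They are shown for the 2 genes that fell and the 2 that rose in Fn testes, and were thus chosen by the direction of change. Whether the base composition of this window goes with the direction of change over all genes was not tested. Capitals mark CpG dinucleotides and each sequence is given on the strand of its gene. They lie at chr17:40794147-40794396 (minus strand) for Crisp2, chr10:112059939-112060188 (plus) for Glipr1l1, chr8:119992188-119992437 (plus) for Crispld2 and chr4:43957452-43957701 (plus) for Glipr2.
Crisp2: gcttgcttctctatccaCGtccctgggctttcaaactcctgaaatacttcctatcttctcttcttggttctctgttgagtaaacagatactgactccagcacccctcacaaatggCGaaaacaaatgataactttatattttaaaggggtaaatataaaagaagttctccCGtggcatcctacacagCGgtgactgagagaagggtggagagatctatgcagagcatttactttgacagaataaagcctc
Glipr1l1: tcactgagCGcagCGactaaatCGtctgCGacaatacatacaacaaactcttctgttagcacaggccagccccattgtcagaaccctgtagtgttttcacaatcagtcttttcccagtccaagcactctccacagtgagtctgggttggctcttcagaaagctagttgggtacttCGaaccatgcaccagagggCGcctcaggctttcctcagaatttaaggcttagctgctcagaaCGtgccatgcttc
Crispld2: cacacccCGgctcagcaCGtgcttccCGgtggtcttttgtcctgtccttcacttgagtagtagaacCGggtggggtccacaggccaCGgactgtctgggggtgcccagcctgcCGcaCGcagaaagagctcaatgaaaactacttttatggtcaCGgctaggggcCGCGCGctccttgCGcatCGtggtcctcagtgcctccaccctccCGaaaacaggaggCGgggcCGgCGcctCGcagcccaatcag
Glipr2: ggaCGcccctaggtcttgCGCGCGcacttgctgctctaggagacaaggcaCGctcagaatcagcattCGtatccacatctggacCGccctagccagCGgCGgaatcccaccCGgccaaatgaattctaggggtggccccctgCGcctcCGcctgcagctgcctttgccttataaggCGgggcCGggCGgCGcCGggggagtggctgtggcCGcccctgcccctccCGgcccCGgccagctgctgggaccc

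The Crisp2 window held 4 CpG at 42.4% GC and the Glipr1l1 window 7 at 50.0%, against a median of 6 CpG and 52.4% GC over 32851 windows of the same length. Crispld2 had 18 CpG at 63.2% GC and Glipr2 had 20 at 69.2%. The latter 2 windows thus held more CpG than 78.3% and 82.1% of all windows, and the Crisp2 and Glipr1l1 windows more than 37.8% and 53.7%. Both strands were searched for 5 textbook motifs. The cAMP response element TGACGTCA, which 1.55% of all windows hold, and its half-site TGACG, which overlaps it and is in 17.8%, were found in none of the 4. The MYB core AACNG, in 74.2% of all windows, matched at 2 places in Crisp2, 1 in Glipr1l1 and 2 in Crispld2. The letters TATAAA, in 12.4% of all windows, matched in Crisp2 alone among the 4, starting 118 and 97 bases before its start on opposite strands. The letters CACGTG, in 6.02%, matched once, in Crispld2. These matches are descriptions of letters and not of bound sites.

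**Figure D1:**
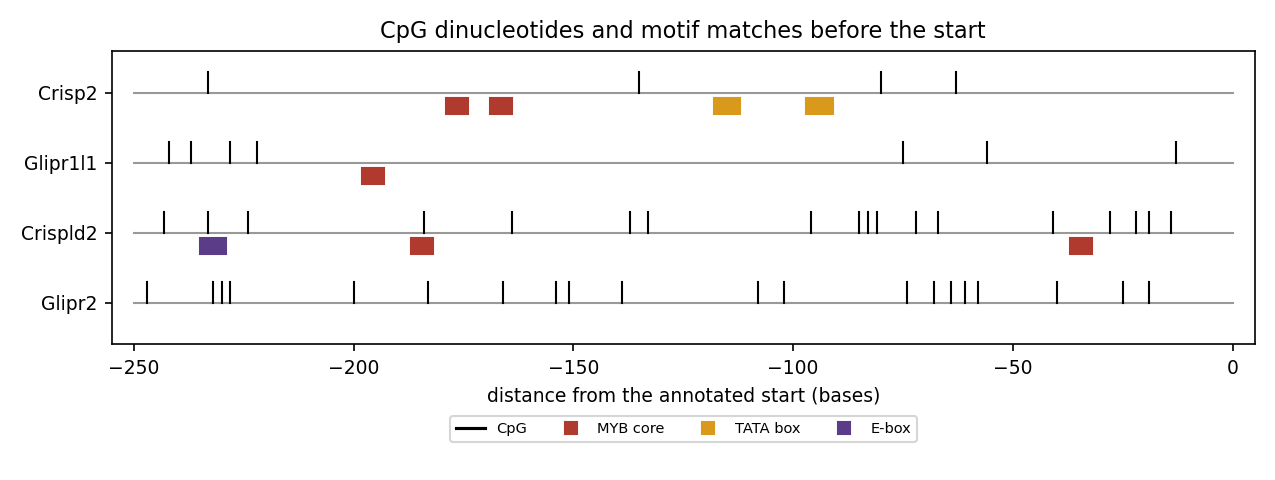
CpG dinucleotides (ticks above each line) and motif matches on either strand (boxes below) in the 250 bases before the annotated start of 4 genes, with distance from the start in bases on the x axis. Crisp2 holds 4 CpG and Glipr1l1 holds 7, while Crispld2 holds 18 and Glipr2 holds 20.

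The deposited values are MAS5 signals, a linear brightness per probe set, and they were compared on the log2 scale with limma over the 27022 probe sets whose geometric mean over the 6 arrays reached the 40th percentile of the table, a signal of 48.0. Precision is limited by the number of arrays, 3 a genotype, and p-values rest on the spread among these 6 samples alone. Dazap1 itself fell, its signal being 4610.4 ± 383 with the Wt allele and 2697 ± 145 with the Fn allele (SD, n = 3 each). Its log2 change was -0.77 (limma adjusted p = 6.7e-05), with its 3 Fn values below its 3 Wt values. The median log2 change of all genes tested was 0.32 as deposited and 0.17 to 0.25 under the other scalings, so rises are also given relative to 0.32. Signals of different probe sets are not on one scale. They were compared only to choose the brightest probe set of a gene. They were also summed over marker lists, where the brightest genes weigh most.

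Of the 11 probe sets, 8 passed the filter. Crisp2 and Glipr1l1 were lower in Fn testes, all 3 probe sets of Crispld2 and both of Glipr2 were higher, and the 1 tested probe set of Glipr1 did not pass the test. Both probe sets of Crispld1 and the other one of Glipr1 were too dim to be tested. Thus 2 probe sets were lower and 5 higher at an adjusted p under 0.05 from limma, where 20.2% of all probe sets tested were lower and 41.8% higher. The split over all probe sets, 5453 lower and 11306 higher, became 6180 and 8170 with arrays centred on the median. In the same 7 probe sets the Fn and Wt values did not overlap, as was the case, with Fn below, for 22.1% of all probe sets and, with Fn above, for 46.6%. By gene, with the brightest probe set standing for each, 2 of 5 were lower and 2 higher, against 24.7% and 44.9% of all 13447 genes. With so few genes these counts are near the background, while the 2 falls were the largest changes among the tested members. Glipr1l1 passed the filter through its Wt signals alone, its Fn geometric mean being under the filter level. A fall was thus the only change it could show.

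**Figure D2:**
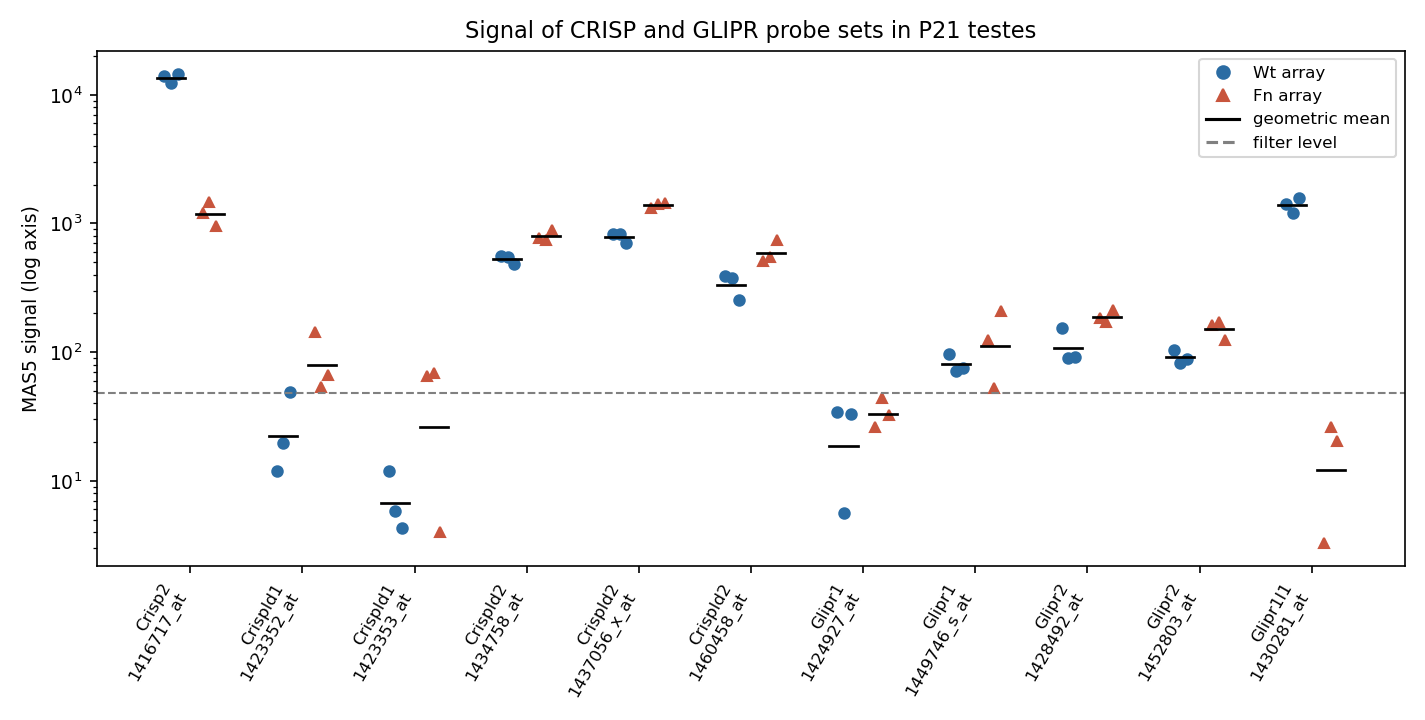
The 11 CRISP and GLIPR probe sets (x axis) and their MAS5 signals on a log y axis, with a circle for each of 3 Wt testes, a triangle for each of 3 Fn testes, geometric means as black bars and the filter level of 48.0 as a dashed line. Crisp2 fell from between 12376 and 14475 to between 962.5 and 1462, Glipr1l1 fell to under the filter level, and the Crispld2 and Glipr2 points of Fn lie above those of Wt.

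Crisp2, the sperm acrosome and tail protein, fell by an order of magnitude and remained bright. In Wt testes its signals were 14125, 12376 and 14475, and in Fn testes they were 1204, 1462 and 962.5. The lowest Wt value was thus far above the highest Fn value, and the replicates of each genotype lay close together. Between geometric means this was an 11.4-fold fall, a log2 change of -3.51 (standard error 0.14, 95% interval -3.83 to -3.20, adjusted p = 1.6e-07 from limma). Only 2.66% of all genes tested had a lower change. Over the 18 other settings the log2 change ran from -3.67 to -3.36. The array holds 1 probe set for Crisp2, and the sources used here do not say which exons its probes match. The signal therefore stands for whatever Crisp2 transcripts the probes match, and splice forms of Crisp2 cannot be told apart in it. In a bulk testis sample, fewer cells of a type and less RNA per cell cannot be told apart either.

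The genes nearest to Crisp2 in their pattern were taken as those whose 6 log2 signals, centred on the Wt mean, lay at the smallest Euclidean distance from its own. They were Pudp at 0.21, Actl9 at 0.24, Ttc30a2 at 0.24, Ms4a13 at 0.26 and Wdr63 at 0.26 log2 units, over 6 arrays. Their log2 changes were -3.47, -3.59, -3.49, -3.62 and -3.52, so that the likeness is mainly in the size of the fall between genotypes. Actl9 encodes an actin relative found in sperm heads, Wdr63 is a dynein chain of the axoneme, Ttc30a2 belongs to intraflagellar transport and Pudp is a phosphatase of pseudouridine monophosphate. The name of the Ttc30a2 probe set, 1437098_x_at, marks probes that may also match other transcripts.

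**Figure D3:**
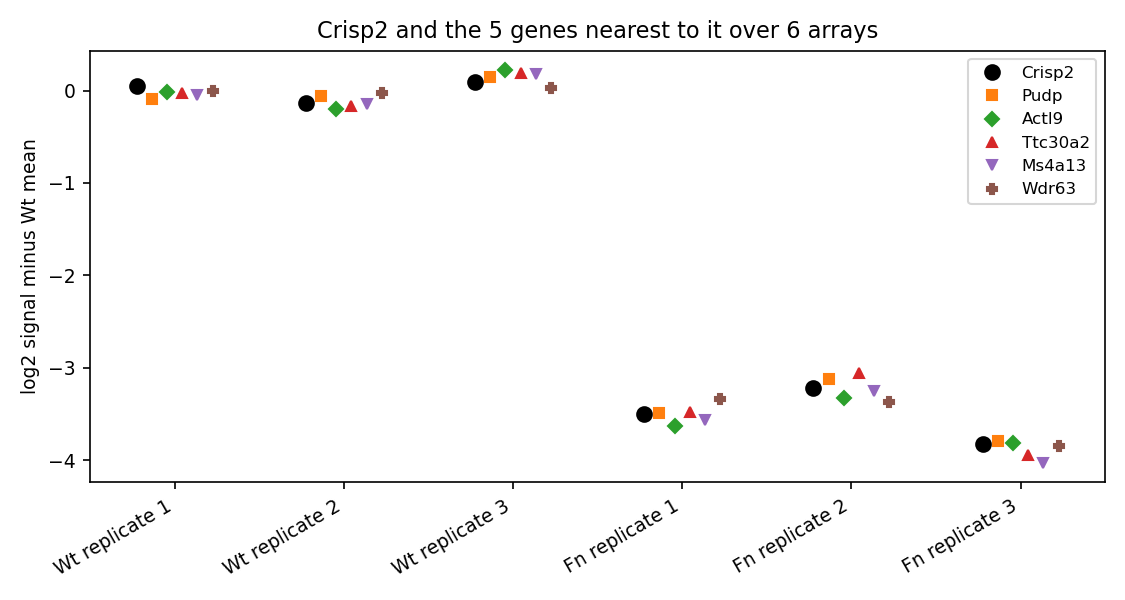
Log2 signal of Crisp2 and its 5 nearest genes in each of 6 arrays, less the Wt mean of the same gene. Within the Fn arrays every gene shown except Wdr63 is highest in replicate 2, and all 6 genes are lowest in replicate 3. The genes were picked for likeness to Crisp2 over these same arrays, so a shared order is partly built in.

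Glipr1l1, the lipid-anchored sperm surface protein, had the largest fall of the family and dropped to the bottom of the signal range. It gave 1427, 1206 and 1565 in Wt testes and 3.3, 26.3 and 20.2 in Fn testes. Each Fn value was under the filter level, where MAS5 values have little meaning as levels, so that the fall is best read as a bound, at least 29.0-fold. The fitted log2 change was -6.85 (standard error 0.64, 95% interval -8.28 to -5.42, adjusted p = 2.0e-05 from limma). It was -4.86 when signals under the filter level were raised to it and -7.41 to -5.92 when 1 array was left out. The size of the change thus depends on how low signals are treated, while its direction and the call did not change in the 18 settings.

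In the RefSeq gene order Glipr1l1 stands on chromosome 10 in a row of 4 related genes, Glipr1, Glipr1l1, Glipr1l2 and Glipr1l3, and these neighbours did not give like values. Glipr1l2, a membrane protein gene of the testis, fell from 2635 ± 153 to 886 ± 107 (SD, n = 3 each), a 2.98-fold fall or -1.58 in log2 (standard error 0.11, limma adjusted p = 3.3e-06). Glipr1 on the other side had a log2 change of 0.47 that did not pass the test. Glipr1l3 was named by no probe set of the annotation used here. Its 250-base window before the start was 86.2% identical to that of Glipr1l1, and whether the Glipr1l1 probes also read Glipr1l3 transcripts was not tested. The differences between these genes' changes were not tested. Crisp1 and Crisp3 are likewise neighbours on chromosome 17, with windows that were 95.6% identical, and Crisp3 was dim in both genotypes.

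Crispld2, the secreted mesenchymal protein with LCCL domains, was higher in Fn testes by all 3 of its probe sets. The brightest, 1437056_x_at, gave 834, 822.5 and 708 in Wt and 1330.3, 1425 and 1433 in Fn. Probe set 1434758_at gave 558, 549 and 483.5 in Wt and 769, 750.5 and 883 in Fn. Probe set 1460458_at gave 389, 374 and 255 in Wt and 509, 553.5 and 746 in Fn. In each of the 3 the groups did not overlap, and Wt replicate 3 was the lowest of the Wt values. The log2 changes were 0.83 (standard error 0.11, adjusted p = 1.5e-04 from limma), 0.59 (standard error 0.12, adjusted p = 0.0021) and 0.84 (standard error 0.20, adjusted p = 0.0053). Relative to the median of all genes these were 0.50, 0.27 and 0.51. The 95% intervals of 1437056_x_at, from 0.59 to 1.07, and of 1460458_at, from 0.38 to 1.29, lay above the median change of all genes, 0.32. That of 1434758_at, from 0.321 to 0.868, just held the median, 0.324. By 1434758_at a rise beyond that of the typical gene was thus not shown. The 3 calls were kept in the 18 other settings, with log2 changes from 0.44 to 0.95. The letter x in the name of the brightest probe set marks probes that may also match other transcripts, and the other 2 carry no such mark.

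Glipr2, the protein of the Golgi's cytosolic face, was higher in Fn testes by both probe sets, at low signals. Probe set 1428492_at gave 153, 90.1 and 91.4 in Wt and 183, 172 and 214 in Fn. Probe set 1452803_at gave 103, 82.2 and 89.2 in Wt and 162, 170.1 and 123 in Fn. The groups did not overlap in either. The log2 changes were 0.81 (standard error 0.24, 95% interval 0.26 to 1.35) and 0.72 (standard error 0.22, 95% interval 0.23 to 1.22), both with an adjusted p of 0.016 from limma. Both intervals held the median change of all genes, 0.32, so a rise beyond that of the typical gene was not shown. The calls rest on few arrays. For 1428492_at the adjusted p from limma was 0.054 without Wt replicate 2, 0.057 without Wt replicate 3 and 0.050 without Fn replicate 3, and for 1452803_at it was 0.062 without Fn replicate 1 and 0.057 without Fn replicate 2.

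Glipr1 and Crispld1 were near the limit of what the array reads in both genotypes. The tested probe set of Glipr1, 1449746_s_at, gave 97.5, 71.1 and 75.2 in Wt and 125, 52.7 and 209.5 in Fn. The Fn values spanned those of Wt, and the log2 change of 0.47 did not pass the test (standard error 0.44, 95% interval -0.52 to 1.46, adjusted p = 0.37 from limma). It depended on single arrays, being 1.01 without Fn replicate 2 (adjusted p = 0.016 from limma) and 0.01 without Fn replicate 3 (adjusted p = 0.98 from limma). The letter s in its name marks probes shared by several transcripts. The other probe set of Glipr1, 1424927_at, lay between 5.6 and 43.7 on the 6 arrays and was not tested.

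Crispld1, the close relative of Crispld2, was read by 2 dim probe sets that were left out by the filter. Probe set 1423352_at gave 11.9, 19.5 and 48.9 in Wt and 143, 53.9 and 66.1 in Fn. These values did not overlap, but 2 of the 3 Wt values lay under the filter level and the third just above it. The Fn geometric mean was therefore at least 1.67-fold higher than that of Wt. With no filter the log2 change of 1.83 had an adjusted p of 0.0370 from limma, and with the filter at the 20th percentile 0.025. With signals under the filter level raised to it, the log2 change was 0.73 and the adjusted p 0.084. Probe set 1423353_at gave 12.0, 5.8 and 4.3 in Wt and 65.0, 69.4 and 4.0 in Fn, so that the groups overlapped, and its adjusted p from limma was 0.20 with no filter. Crispld1 in Wt testes was thus not above the filter level by either probe set's mean, and its change was not settled.

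The probe sets of 1 gene were compared with each other by the difference of their log2 signals on each array, in 6 pairs, with an exact two-sided permutation test that cannot go below 0.10 with 3 arrays against 3. The largest difference in change among the pairs of tested probe sets was that between 1434758_at and 1460458_at of Crispld2, -0.24 (exact permutation p = 0.30). The pair 1434758_at and 1437056_x_at of Crispld2 differed by -0.23 (exact permutation p = 0.10, adjusted 0.60 over the 6 pairs). For Glipr2 the difference was 0.08 (exact permutation p = 0.70). No pair had an adjusted p under 0.60, which does not show that the probe sets of a gene moved alike.

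**Figure D4:**
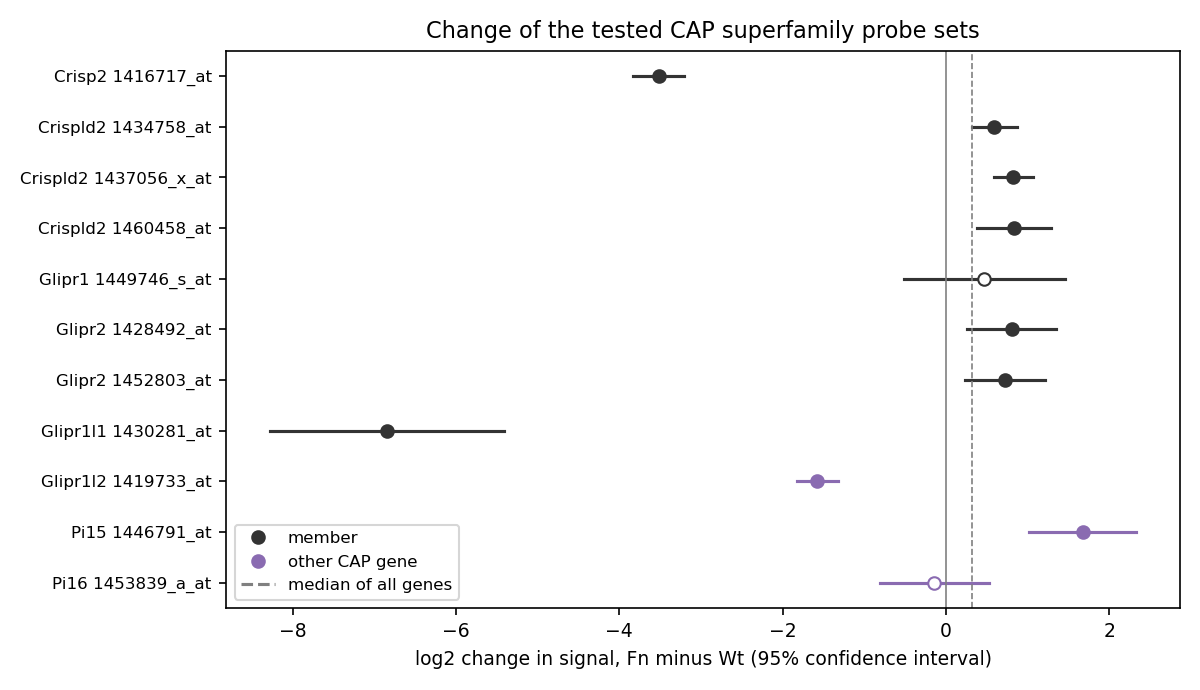
Log2 change in signal, Fn minus Wt, with its 95% confidence interval, of the 8 tested CRISP and GLIPR probe sets (dark) and of 3 other CAP genes (violet), from 3 arrays per genotype. Points are filled where the limma test was passed and open elsewhere, and a dashed line beside the solid line at 0 gives the median change over the genes tested, 0.32. Crisp2 and Glipr1l1 stand at -3.51 and -6.85, and Crispld2 and Glipr2 between 0.59 and 0.84.

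Of 8 other genes of the CAP superfamily, 6 had a probe set and 3 were tested, of which 1 fell, 1 rose and 1 did not pass. Over all genes tested 24.7% fell and 44.9% rose. Glipr1l2 was the one that fell. Pi15, a secreted peptidase inhibitor and the neighbour of Crispld1 on chromosome 1, gave 64.2, 33.8 and 48.5 in Wt and 179, 143 and 134 in Fn by probe set 1446791_at. Its groups did not overlap, and the log2 change was 1.68 (standard error 0.29, adjusted p = 8.5e-04 from limma), at least 3.14-fold over the filter level. The Wt geometric mean of 1446791_at was just under that level, so it passed the filter through its Fn signals and could show only a rise. Its other probe set, 1421403_at, was dim, with 20.1, 43.9 and 44.2 in Wt and 63.3, 13.1 and 40.7 in Fn, and was not tested, and the mean of both probe sets gave no call. Pi16, also named a peptidase inhibitor, had a log2 change of -0.14 that did not pass the test (adjusted p = 0.69 from limma). Crisp3, Crisp4 and Clec18a had geometric means under the filter level in both genotypes. Crisp4, like Crisp1, is a gene of the epididymis. R3hdml and Glipr1l3 had no probe set in the annotation used here.

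Among 6 genes whose products are reported to bind these proteins, the partners of CRISP2 moved both ways. Ggn, the germ cell protein gametogenetin, fell from 589 ± 101 to 60.7 ± 27.0 (SD, n = 3 each), a 10.4-fold fall or -3.38 in log2 (limma adjusted p = 2.5e-05). Catsper1, a pore subunit of the sperm calcium channel, had -3.19 (limma adjusted p = 0.0028), and its Wt geometric mean was at least 5.39-fold over the Fn one. With its Fn geometric mean under the filter level, Catsper1 passed the filter through its Wt signals and could show only a fall. Shtn1, which is also expressed in nerve cells, rose from 594 ± 63.1 to 1106 ± 103 (SD, n = 3 each), or 0.90 in log2 (limma adjusted p = 2.2e-04). The kinase gene Map3k11 had a log2 change of -0.45 at an adjusted p of 0.049 from limma, and over 18 other settings its adjusted p ran from 0.019 to 0.16. Of the partners of GLIPR2, the caveolin gene Cav1 rose by 1.10 on the log2 scale (adjusted p = 5.0e-05 from limma). The autophagy gene Becn1 had a log2 change of -0.16 by its brightest probe set, which did not pass (adjusted p = 0.13 from limma) but was -0.31 (adjusted p = 0.0404 from limma) with arrays centred on the median. Becn1 had 0.34 by 1455880_s_at (adjusted p = 0.011 from limma) and 0.97 by the dimmer 1430358_at (adjusted p = 0.012 from limma). It was also higher by the dimmer 1435219_x_at (adjusted p = 0.045 from limma). By 1437006_x_at, likewise dimmer, it had 0.86, which did not pass (adjusted p = 0.19 from limma). The brightest probe set thus went against all the other tested ones of Becn1, so that its direction depends on the probe set. The median change of the 6 genes was -0.30.

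The log2 change of Crisp2, -3.51, was close to the median of the tested genes of the acrosome and of binding to the egg. That of Glipr1l1, -6.85, was lower than that of each of these tested genes. Of 20 such genes 19 had a probe set and 13 were tested, and 12 of these fell while 1 rose. Over all genes tested 24.7% fell. The median log2 change of the 13 was -3.61. The filter left out Izumo3, Spam1, Spaca7 and Izumo1, with -6.72, -5.60, -5.36 and -4.41. It also left out Zan, with -2.82, and Spaca6, with -2.45 by its brightest probe set. The median thus misses some of the largest falls, and Izumo3 lay near Glipr1l1. The size of these values, as of that of Glipr1l1, depends on how low signals are treated. In Fn testes the geometric means of 11 of the 19 were under the filter level, against 1 in Wt testes. Tested genes among them passed the filter through their Wt signals and could show only a fall. Zpbp, Zpbp2 and Acrbp, proteins of the acrosome, had -3.85, -4.13 and -3.79, the protease Acr had -3.50 and Spesp1, of the equatorial segment, had -2.37 (each at an adjusted p under 0.05 from limma). Spaca3, a lysozyme-like protein of the acrosome, and Zp3r were lower by at least 12.6-fold and 9.15-fold. Tex101, a surface protein of germ cells that GLIPR1L1 resembles in having a lipid anchor, was the 1 that rose, by 0.27 on the log2 scale. With arrays centred on the median it had 0.12 (adjusted p = 0.29 from limma), so its call depends on the scaling.

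Markers of germ cell stages and of other cell types moved with these results, and their part in them was not tested. The counts below stand against the 24.7% of all genes tested that fell and the 44.9% that rose. Of 15 genes of pachytene and diplotene spermatocytes 13 fell and 1 rose, the median of their log2 changes being -1.97. The sum of their signals ran from 120028 to 129474 in the Wt arrays and from 35923 to 45807 in the Fn arrays. Pgk2, the germ cell phosphoglycerate kinase, had -5.73. Of 15 genes of round spermatids 14 had a probe set and 12 were tested, and 12 fell, with a median of -3.48. Their summed signals were 18359 to 22786 in Wt and 2118.5 to 2621 in Fn. The spermatid actin-like gene Actl7b had -4.20 and Dkkl1 had -2.98. The geometric mean of 9 of these 14 genes in Fn testes was under the filter level, as was that of 1 in Wt testes. Tested genes under it in Fn testes alone passed the filter through their Wt signals. A fall was the only change such genes could show, and the median rests partly on them. Spaca1 stands in both this list and that of the acrosome. No listed gene was at 0 on all arrays.

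Crispld2 and Glipr2 rose beside somatic markers, and the counts below stand against the 44.9% of all genes that rose. Among 18 genes of Sertoli cells, 17 rose and none fell. The median of their log2 changes was 0.73, and their summed signals were 88147 to 100454 in Wt and 133398 to 137336 in Fn. Among 16 peritubular myoid and stromal genes, 14 rose and none fell. Their median was 1.09, which is 0.77 above that of all genes, and their sums were 32069 to 42155 and 72525 to 76006.2. The stromal genes Lum, Tcf21 and Pdgfra had 1.62, 1.29 and 1.22. Of 10 endothelial genes 5 rose and 0 fell (median 0.55, sums 1791 to 2088 and 3287 to 3794). Of 13 macrophage genes tested, of 15 listed, 7 rose and 1 fell, Aif1 (median 0.51, sums 6013 to 7507 and 7872 to 10884). Of 6 Leydig cell genes tested, of 11 listed, 4 rose and 0 fell (median 0.50, sums 7062 to 10986 and 7512 to 13715). The endothelial and macrophage counts, 5 of 10 and 7 of 13, are near that background. The macrophage and Leydig cell counts were not stable. With arrays centred on the median 0 macrophage and 1 Leydig cell genes rose, without Wt replicate 3 or Fn replicate 3 the macrophage count was 2, and without Wt replicate 2 or Fn replicate 1 the Leydig cell count was 2. The log2 changes of Crispld2, 0.59 to 0.84, and of Glipr2, 0.72 and 0.81, thus lay in the range of these lists. Between 64.8% and 78.7% of all genes tested had a lower change than these values. A shared cell source was not tested.

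Most listed genes of the epididymis, where Crisp1 and Crisp4 are made, were dim on these arrays, while Spink8 was bright. Of 16 epididymal genes 12 had a probe set and 3 were tested, and the geometric means of 10 of the 12 were under the filter level in Wt testes and of 8 in Fn testes. Of these 3, Rnase10 fell by 1.93 on the log2 scale (adjusted p = 6.6e-04 from limma), while Lcn5 had 1.56 and Spink8 1.05, neither of which passed (adjusted p = 0.077 and 0.14 from limma). The median of the 3 was 1.05. Rnase10 passed the filter through its Wt signals alone and could show only a fall. Lcn5 passed it through its Fn signals alone and could show only a rise. With the replicate number as a block, Lcn5 and Spink8 were called higher (adjusted p = 0.025 and 0.0021 from limma). Spink8 gave 256, 1586 and 686 in Wt and 872, 2407 and 1188 in Fn, so that it was higher in Fn in each of the 3 same-numbered pairs while the groups overlapped. The summed signals of the list, 647 to 1913 in Wt and 1268 to 2892 in Fn, overlapped between genotypes when read unpaired. Crisp4 stayed between 4.3 and 29.8 on the 6 arrays.

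**Figure D5:**
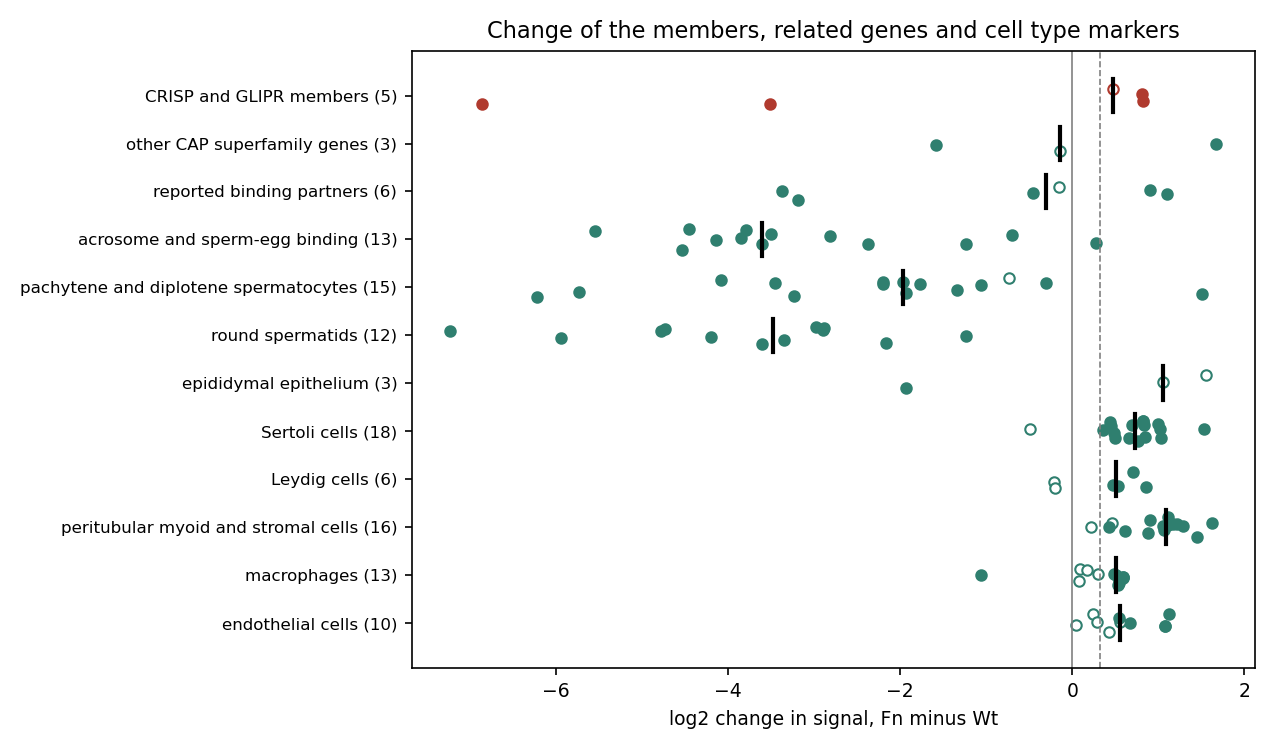
Genes tested, each by its brightest probe set, plotted by log2 change in signal (x axis, Fn minus Wt) for the CRISP and GLIPR genes, 3 lists of related genes and 8 cell type lists, with the number of genes tested in parentheses. Filled points passed the limma test, black bars are medians, and a dashed line beside the solid line at 0 gives the median change over the genes tested, 0.32. Crisp2 at -3.51 lies among the acrosome and spermatid genes, Glipr1l1 at -6.85 lies below the tested acrosome genes, and the other members at 0.47 to 0.83 lie in the range of the somatic markers. Between 57.7% and 78.2% of all genes tested had a lower change than these other members, of which Glipr1 did not pass the test.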

How the data were processed

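The authors hybridised each testis RNA to an Affymetrix Mouse Genome 430 2.0 array and deposited an intensity per probe set on a linear scale. It is a MAS5 signal, per the submitters' notes on processing, which give no version. Detection calls were not used here. The 1 value of 0 was set to 0.1. Signals were put on the log2 scale and fitted with limma 3.58.1 (lmFit, eBayes with an intensity trend) in R 4.3.3, Fn against Wt, over 27022 of 45037 probe sets, with Benjamini-Hochberg adjustment over these. A geometric mean under the filter level of 48.0 gives a bound, written "at least". The platform annotation named 1 gene for 34945 probe sets, several for 932 and none for 9160. Only the first could stand for a gene. The fit, its adjustment and the shares of all probe sets left out none of these kinds. The brightest probe set stood for a gene. The rule for named genes took every member, Dazap1, up to 8 genes of each related list and 4 of each cell type list by smallest p, and the 5 genes nearest to Crisp2. Single probe sets, list members that went against their list and further listed genes named for their values were chosen after those were seen. The members and lists were chosen with earlier results of these data known. Same-numbered Wt and Fn arrays deviated together slightly (correlations of 0.13, 0.12 and 0.16 across probe sets, against -0.15 to 0.04 for other pairs). The replicate numbers come from the labels, and so few arrays cannot settle whether they pair the samples. The main fit and the permutation tests were unpaired, and the block is an alternative. Spearman correlations between replicates were 0.951 to 0.961, and any pair of arrays had at most 0.27% identical values. Alternatives covered scaling, filter, pseudocount, variance prior, array weights, block, averaging of a gene's probe sets and leaving out each array. The steps were also run on simulated data with few changed probe sets, as many raised as lowered. In the real data 20.2% of probe sets were lower and 41.8% higher, so that run does not vouch for the calls here. Promoter windows were aligned with Biopython 1.88.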

Additional observations from a re-analysis of the deposited data

How the results depend on the processing

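The 2 member probe sets that fell did so under each of the 18 other settings, and the number that rose was 5, with 4 to 6 over the settings. By gene the number that rose was 2, and 1 to 3 when 1 array was left out. By its brightest probe set Glipr2 was not called without Wt replicate 2, Wt replicate 3 or Fn replicate 3. Glipr1 was called without Fn replicate 2. With the replicate number as a block the counts were again 2 lower and 5 higher probe sets. Over all probe sets 5637 were lower and 11710 higher with the block, against 5453 and 11306 without it. The block thus changed no call of a member, though it added Lcn5 and Spink8 to the epididymal genes called higher. Raising signals under the filter level to it was chosen after seeing the data and gave -4.86 for Glipr1l1. Of the 6 differences between probe sets of 1 gene, 2 of Crispld2 kept their sign, 1434758_at minus 1437056_x_at with -0.29 to -0.17 and 1434758_at minus 1460458_at with -0.33 to -0.11, and 4 changed sign. For 1437056_x_at minus 1460458_at of Crispld2 the value was -0.01, and 0.060 after quantile normalization, 0.010 with log2(signal + 16) and -0.085 to 0.14 without 1 array. For 1423352_at minus 1423353_at of Crispld1 it was -0.14, and 0.12 with log2(signal + 16) and -1.36 to 0.85 without 1 array. For 1424927_at minus 1449746_s_at of Glipr1 it was 0.38, and -0.028 with log2(signal + 16) and -0.39 to 0.86 without 1 array. For 1428492_at minus 1452803_at of Glipr2 it was 0.08, and -0.15 to 0.25 without 1 array. Pi16 had -0.37 to 0.082 without 1 array. The causes were not tested. Low signal limits Crispld1, Glipr1 and the Fn values of Glipr1l1.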
